A study of Mus musculus with 10 samples.

Results

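Kit and Kitl, a receptor gene and its ligand gene, were followed through 2 droplet single-cell RNA data sets and 8 ATAC-seq peak lists of mouse testis. Both genes were taken by symbol from the single-cell matrices, where they are 2 of 32285 listed genes. Open chromatin around them was taken as every deposited peak within 100 kb of either gene on the mm10 build. Peaks of the 8 lists that overlapped by at least 1 bp were merged into 37 regions near Kit and 30 regions near Kitl, of 219514 merged regions in all.

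Kit encodes a receptor tyrosine kinase of the cell surface, and Kitl encodes its ligand, also called stem cell factor. Ligand binding pairs the receptors and starts signalling through PI3 kinase, the RAS to ERK kinases, SRC kinases and STAT factors. In the testis the pair is known for the survival and proliferation of differentiating spermatogonia, which carry KIT on their surface and meet KITL made by Sertoli cells, the somatic cells that support germ cells in the tubule. Leydig cells, the androgen-making cells between the tubules, are also known to carry KIT. In mouse spermatids a truncated form of KIT is made from an internal start of the gene. It shares the 3′ end of the full-length transcript, so 3′ tags such as those counted here cannot tell both forms apart, and they cannot tell the membrane-bound form of KITL from the soluble form either.

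Both single-cell samples and 4 of the 8 chromatin libraries came from conditional knockout (cKO) mice labelled Smarca5 fl/delta; Ddx4-Cre+, in which a Cre driven by the germ cell gene Ddx4 deletes the chromatin remodeller gene Smarca5. The single-cell data are 2 cKO whole-testis suspensions with an input of 15000 cells each, so no comparison of genotypes could be made in them. The chromatin data are cells sorted on 4C DNA content, which the submitters call pachytene or pachytene-like, from cKO mice (2 libraries) and from wild type C57BL6 mice (2 libraries), and sorted cKIT+ cells from cKO mice (2 libraries) and from wild type C57BL6 mice (2 libraries), with 50000 cells per library. The label of each cKIT+ library describes both sorts, and its line on library construction names cKIT+ cells. KIT protein itself chose the cKIT+ cells, so at the Kit locus a stage difference and the sort cannot be told apart. The labels give no ages, and they do not say whether replicates came from separate animals, so the p-values measure the spread between samples only. A wash meant to deplete Leydig cells preceded every suspension.

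The sequence before a transcription start of each gene is shown because both starts lie inside open regions described further on. The table gives 2 starts for Kit, of which the first was used, and 1 for Kitl, while the annotated span of Kitl begins at 100015615, inside the printed window. Both sequences are from RefSeq (GRCm38.p6, the assembly named mm10) on the plus strand, at chr10:100015571-100015820 for Kitl and chr5:75574737-75574986 for Kit. Capitals mark every match, on either strand, to GGGCGG, which zinc finger factors of the SP family bind, and to TATAAA, which the general factor TBP binds.
Kitl promoter: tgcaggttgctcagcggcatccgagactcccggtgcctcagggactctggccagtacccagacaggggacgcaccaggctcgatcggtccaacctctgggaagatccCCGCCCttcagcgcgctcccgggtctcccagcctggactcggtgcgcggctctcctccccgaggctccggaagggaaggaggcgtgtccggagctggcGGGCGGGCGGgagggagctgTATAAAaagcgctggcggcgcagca
Kit promoter: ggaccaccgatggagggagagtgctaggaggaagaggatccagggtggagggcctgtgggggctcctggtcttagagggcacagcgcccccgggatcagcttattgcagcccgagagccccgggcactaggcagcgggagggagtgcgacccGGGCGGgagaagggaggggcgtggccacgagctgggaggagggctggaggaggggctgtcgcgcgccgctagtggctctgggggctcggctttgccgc

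The Kitl promoter held 3 GGGCGG matches, of which the last 2 overlap, and 1 TATAAA match that begins at -25 from the start. The Kit promoter held 1 GGGCGG match, beginning at -98, and no TATAAA. Of the 32817 promoters in the table, 32.7% held GGGCGG and 12.4% held TATAAA in the same 250 bases. Neither promoter held CANNTG (the E-box, present in 66.2% of promoters), CACGTG (6.02%), TGACGTCA (1.55%) or CCAAT (33.8%) on either strand. Both windows were rich in G and C, with a GC content of 69.2% for Kitl and 70.8% for Kit beside a median of 52.4% over all promoters. Kitl had 23 CpG sites and Kit had 17, beside a median of 6.

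After doublets were removed, 7413 and 12933 cells of cKO replicates 1 and 2 remained, with a median of 3678 and 4333 unique molecules (UMIs) per cell. Cells were clustered within each sample with Kit, Kitl and the genes of the KIT pathway barred from the genes that set the clusters. Clusters were named from marker lists, so a class such as Sertoli cells means Sertoli-like cells, and the naming rule was settled after the clusters had been seen. Of 12861 and 17744 barcodes with at least 500 UMIs, 76 were the same in both samples. Smarca5, the deleted gene, was counted at 331 and 211 CPM (its share of all UMIs of the class, scaled to a common total) in differentiating spermatogonia and at 29.5 to 62.1 CPM in Leydig and Sertoli cells of the cKO samples. With no wild-type suspension beside them, and with tags that may lie outside the deleted exons, these values do not check the deletion. In summed data, fewer cells with a transcript and fewer transcripts per cell cannot be told apart.

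Kitl, the ligand gene, was abundant in Leydig and Sertoli cells and rare in every germ cell class. Leydig cells had 152 CPM (95% Poisson interval 134 to 171, from 276 UMIs) in cKO replicate 1 and 80.6 CPM (73.8 to 87.8, from 525 UMIs) in cKO replicate 2. Sertoli cells had 58.7 CPM (46.0 to 74.0, from 72 UMIs) in replicate 1 and 140 CPM (126 to 155, from 367 UMIs) in replicate 2. Leydig cells were the higher class in replicate 1 and the lower class in replicate 2, so their order was not the same in both samples. The intervals cover counting error only. The Sertoli class also held RNA of elongating spermatids. The 9 markers of elongating spermatids summed to 42080 and 43212 CPM in Sertoli cells, with none at 0, against 2185 and 1456 CPM in Leydig cells and 105871 and 123912 CPM in elongating spermatids themselves. The 10 Sertoli markers summed to 4507 and 12220 CPM in Sertoli cells and to 3725 and 3717 CPM in Leydig cells. CPM divides by all UMIs of a class, and the part of the spermatid RNA in the Sertoli levels and in every contrast with Sertoli cells was not tested.

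Germ cells held little Kitl. In the order of spermatogenesis, the CPM of replicates 1 and 2 were 2.12 and 5.40 in differentiating spermatogonia, 1.66 and 4.33 in leptotene or zygotene spermatocytes, 4.32 and 4.33 in pachytene or diplotene spermatocytes, 3.60 and 2.66 in round spermatids, and 1.67 and 1.18 in elongating spermatids. Each neighbouring pair of germ cell classes in the order of their mean levels overlapped between samples. Free RNA, read from the 15453 droplets of replicate 1 that held 10 to 100 UMIs, had 5.57 CPM of Kitl (2.04 to 12.1, from 6 UMIs), and the germ cell levels lay within or below that interval. With the settings used throughout, no step between successive germ cell classes passed edgeR's quasi-likelihood test after Benjamini-Hochberg adjustment over 19061 genes. The log2 fold changes were -0.02 ± 0.67 (SE, adjusted p = 1) for leptotene or zygotene spermatocytes over spermatogonia, 0.87 ± 0.47 (adjusted p = 0.127) for pachytene or diplotene over leptotene or zygotene spermatocytes, -0.42 ± 0.38 (adjusted p = 0.336) for round spermatids over pachytene or diplotene spermatocytes, and -0.59 ± 0.46 (adjusted p = 0.343) for elongating over round spermatids. Spermatogonia over the mean of the other germ cell classes gave -0.28 ± 0.54 (adjusted p = 0.671). A pair of these steps became calls under other settings. Pachytene or diplotene over leptotene or zygotene spermatocytes gave 1.61 when cells needed 2000 UMIs (edgeR adjusted p = 0.00488) and 1.19 at Leiden resolution 0.5 (edgeR adjusted p = 0.0478). Round spermatids over pachytene or diplotene spermatocytes gave -1.13 with 2000 UMIs (edgeR adjusted p = 0.0151).

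Sertoli cells had more Kitl than the spermatogonia beside them in the tubule, with a log2 fold change of 4.95 ± 0.50 (SE) in edgeR's quasi-likelihood test (adjusted p = 2.1e-14). Among all genes, 53.2% passed the same test, so a call alone sets Kitl apart little. The difference was larger than the spread between samples in both suspensions. Kitl was lower in round spermatids than in Sertoli cells (-4.52 ± 0.41, adjusted p = 4.69e-17), a contrast in which 58.8% of genes passed. It was lower in spermatogonia than in Leydig cells (-5.78 ± 0.50, adjusted p = 5.07e-18), where 41.6% passed. These values ran from -4.85 without replicate 1 to -3.83 without replicate 2 and from -5.11 without replicate 1 to -7.08 without replicate 2. Leydig over Sertoli cells gave 0.83 ± 0.35 (adjusted p = 0.0380), where 22.1% of genes were called higher in Leydig cells. The elongating spermatid markers given above were at 2185 and 1456 CPM on the Leydig side and 42080 and 43212 CPM on the Sertoli side. The call was lost in a fit without the sample block (0.81, adjusted p = 0.106) and under other settings, and the value was 0.17 without replicate 1 and 1.67 without replicate 2.

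The share of cells with at least 1 Kitl UMI followed the summed levels in Leydig and Sertoli cells. It was 32.4% (exact binomial 95% interval 28.8 to 36.2) and 27.2% (24.9 to 29.6) of Leydig cells, 11.4% (8.23 to 15.4) and 35.5% (31.3 to 39.9) of Sertoli cells, and 0.796% and 0.939% of elongating spermatids in replicates 1 and 2. Median depth was 2394 and 3970 UMIs in Leydig cells, 2275 and 3068 in Sertoli cells, and 4105 and 5120 in elongating spermatids. After each cell was thinned to 1000 UMIs the shares were 15.0% and 9.99% in Leydig cells, 5.72% and 13.7% in Sertoli cells, and 0.0885% and 0.209% in elongating spermatids. Before thinning, the highest germ cell share was in pachytene or diplotene spermatocytes, at 3.13% and 3.70%. Thinned, that class had 0.288% and 0.253%. Single Sertoli cells reached 7 and 11 UMIs of Kitl, and single Leydig cells reached 4 UMIs in each sample.

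Sertoli cells of replicate 2 formed 2 clusters with different Kitl levels. The smaller one, of 118 cells led by Mageb18, Tnik and Slc24a3 and holding Wt1 among its leading genes, had 361 CPM of Kitl (311 to 417). The larger one, of 386 cells, had 85.8 CPM (73.8 to 99.3). Replicate 1 had a single Sertoli cluster of 332 cells, at 58.7 CPM. The larger cluster alone was thus close to the Leydig cells of replicate 2, at 80.6 CPM. Markers of Sertoli cells summed to 3904 CPM in the smaller cluster and 14252 CPM in the larger one, and those of elongating spermatids summed to 30558 CPM in the smaller cluster and 46304 CPM in the larger one. The part of these differences in Kitl was not tested.

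**Figure D1:**
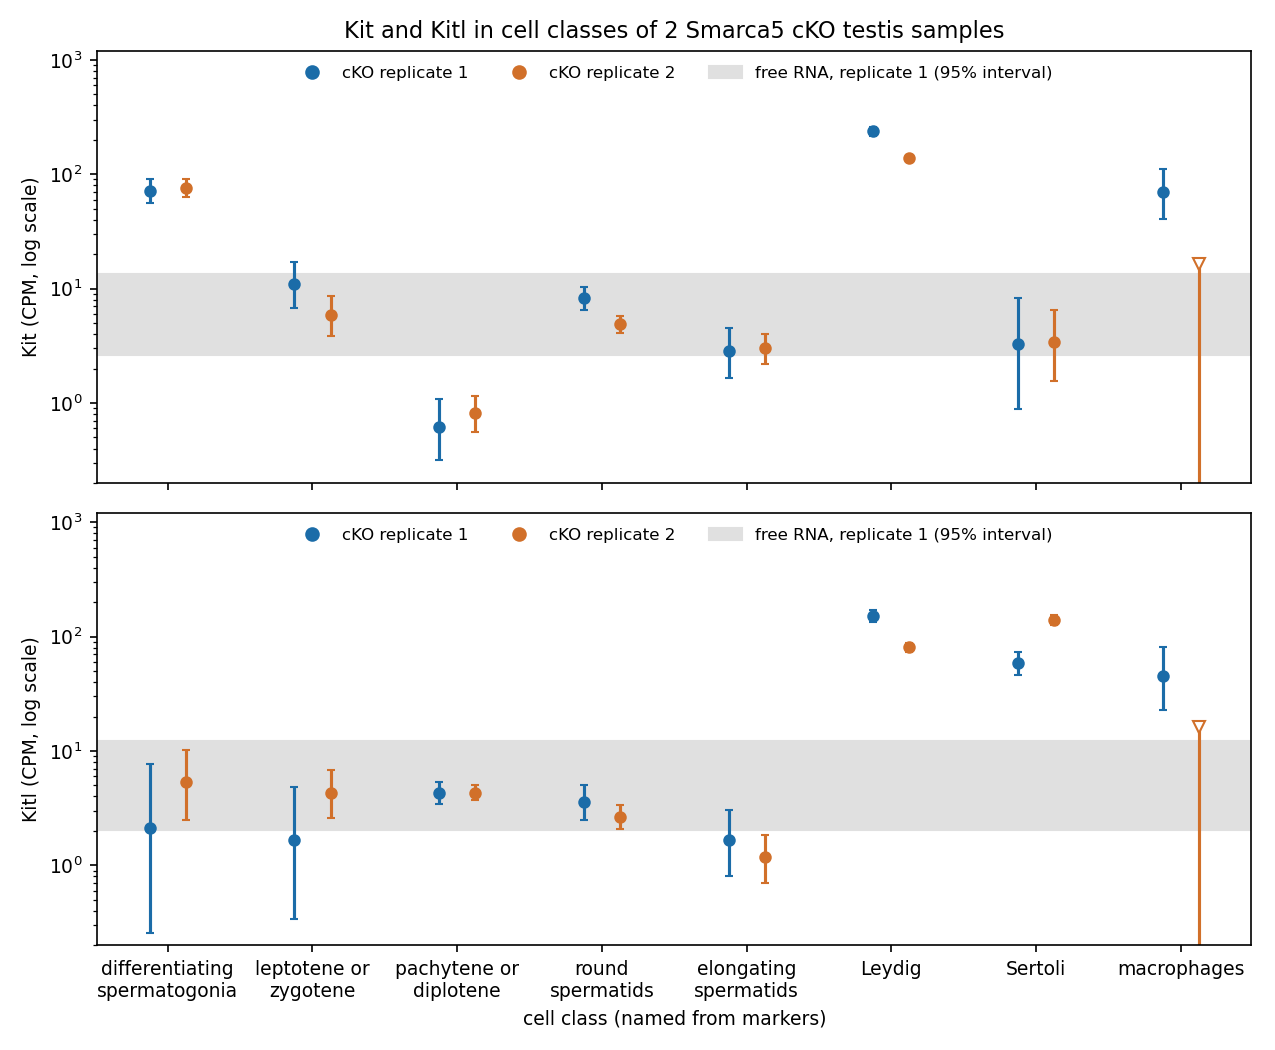
Levels of Kit (upper panel) and Kitl (lower panel) in CPM on a log axis, for 5 germ cell classes in the order of spermatogenesis and 3 somatic classes, in cKO replicates 1 and 2. Points are CPM of summed UMIs with 95% Poisson intervals, open triangles with a line to the axis mark a count of 0 with its upper limit, and the grey band is the interval of free RNA in replicate 1. Kit is highest in Leydig cells (237 and 139 CPM) and then in differentiating spermatogonia (72.0 and 76.3 CPM), and Kitl in Leydig and Sertoli cells.

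Kit, the receptor gene, was highest in Leydig cells, with 237 CPM (215 to 261, from 432 UMIs) in replicate 1 and 139 CPM (130 to 148, from 904 UMIs) in replicate 2. Differentiating spermatogonia came next, with 72.0 CPM (55.9 to 91.3, from 68 UMIs) and 76.3 CPM (63.6 to 90.7, from 127 UMIs). Both samples gave this order, and no Leydig value overlapped a spermatogonial value. No cluster was named undifferentiated spermatogonia. The 10 markers of those cells summed to 195 and 216 CPM in the spermatogonial class, against 85.7 to 187 CPM in the other germ cell classes. Its own 10 markers summed to 1102 and 1427 CPM, against 217 to 899 CPM in the other germ cell classes. The highest of these were pachytene or diplotene spermatocytes, at 741 and 899 CPM. The 10 leptotene or zygotene markers summed to 2034 and 2682 CPM in the spermatogonial class, against 6073 and 6405 CPM in leptotene or zygotene spermatocytes. The share of other stages in the class was not tested. Sertoli cells, which meet the receptor on germ cells, had 3.26 CPM (from 4 UMIs) and 3.43 CPM (from 9 UMIs), inside the free RNA interval of 2.61 to 13.4 CPM.

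Spermatogonia over Leydig cells gave a log2 fold change of -2.30 ± 0.36 (SE) for Kit in edgeR's quasi-likelihood test (adjusted p = 4.91e-08). The value was -2.08 without replicate 1 and -2.67 without replicate 2. Leydig over Sertoli cells gave 6.36 ± 0.49 (adjusted p = 1.22e-20), and Sertoli cells over spermatogonia gave -4.06 ± 0.49 (adjusted p = 2.44e-11). Kit was higher in round spermatids than in Sertoli cells by 1.36 ± 0.52 (adjusted p = 0.0196). That call was lost when doublets were kept (0.86) and when cells needed 2000 UMIs (1.07), and the Sertoli side rests on 13 UMIs.

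With the settings used throughout, macrophages differed between the samples in both genes. In replicate 1 they had 70.0 CPM of Kit (40.8 to 112, from 17 UMIs) and 45.3 CPM of Kitl (22.6 to 81.1, from 11 UMIs). In replicate 2 they had no UMI of either gene among 226134 UMIs, which allows up to 13.3 CPM (3 counts). The 8 Leydig cell markers summed to 6964 CPM in the macrophages of replicate 1 and 367 CPM in those of replicate 2, with none at 0 in replicate 1 and Lhcgr at 0 in replicate 2. For every 1000 Leydig marker UMIs, the macrophages of replicate 1 held 10.1 of Kit and 6.51 of Kitl, and the Leydig cells of that sample held 10.2 of Kit and 6.54 of Kitl. Spermatogonia held 764 and 1114 of Kit per 1000 Leydig marker UMIs in replicates 1 and 2. The macrophage levels of replicate 1 moved with the clustering. They were 6.33 CPM for each gene at Leiden resolution 0.5, and 138 CPM of Kit and 55.3 CPM of Kitl at resolution 2. Macrophages of replicate 2 stayed at 0 at both resolutions.

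Contrasts that average macrophages with another somatic class follow their values. Germ over somatic classes gave -4.21 ± 0.37 (SE) for Kitl (adjusted p = 3.12e-18) and -1.99 ± 0.29 for Kit (adjusted p = 9.73e-09) in edgeR's quasi-likelihood test, in which 53.6% of genes passed. Without macrophages they were -5.16 for Kitl (adjusted p = 1.77e-44) and -2.06 for Kit (adjusted p = 3.13e-08). With replicate 2 alone, where macrophages are at 0 UMIs, the Kit value was 1.67, and with replicate 1 alone it was -2.36. Leydig cells over the other somatic classes gave 2.02 ± 0.35 for Kitl (adjusted p = 9.96e-07) and 4.86 ± 0.36 for Kit (adjusted p = 1.1e-21), where 33.8% of genes passed. Sertoli cells over the other somatic classes gave 0.78 ± 0.37 for Kitl (adjusted p = 0.0743) and -4.68 ± 0.51 for Kit (adjusted p = 5.01e-13), where 46.6% passed. Without replicate 1 these 4 values were 6.68 and 10.14 for Leydig cells and 6.42 and 0.68 for Sertoli cells, and they depend on the prior count.

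Within the germ line, Kit was high in differentiating spermatogonia, fell in spermatocytes and was higher again in round spermatids. In the order of spermatogenesis, the CPM in replicates 1 and 2 were 72.0 and 76.3 in differentiating spermatogonia, 11.1 and 5.93 in leptotene or zygotene spermatocytes, 0.617 and 0.818 in pachytene or diplotene spermatocytes, 8.25 and 4.92 in round spermatids, and 2.84 and 3.00 in elongating spermatids. The minimum in pachytene or diplotene spermatocytes rested on 12 and 31 UMIs among 19442508 and 37899944. The values of replicates 1 and 2 did not overlap between pachytene or diplotene spermatocytes and any other germ cell class, and those of leptotene or zygotene spermatocytes overlapped with those of round spermatids. The levels of leptotene or zygotene spermatocytes, round spermatids and elongating spermatids all lay within the free RNA interval of replicate 1, 2.61 to 13.4 CPM, and those of pachytene or diplotene spermatocytes lay below it.

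Leptotene or zygotene spermatocytes had less Kit than spermatogonia, with a log2 fold change of -2.95 ± 0.41 (SE) in edgeR's quasi-likelihood test (adjusted p = 1.25e-08). Among all genes, 15.7% were higher and 13.8% lower in this step. The value was -3.51 without replicate 1 and -2.30 without replicate 2. Pachytene or diplotene had less Kit than leptotene or zygotene spermatocytes, by -2.87 ± 0.47 (adjusted p = 1.46e-07), in a step where 25.3% of genes were higher and 21.5% lower. This value was -2.18 without replicate 1 and -3.67 without replicate 2. Round spermatids had more Kit than pachytene or diplotene spermatocytes, by 3.12 ± 0.41 (adjusted p = 1.14e-10), and by 2.85 without replicate 1 and 3.67 without replicate 2, in a step where 32.6% of genes were higher and 32.1% lower. Elongating over round spermatids gave -0.48 ± 0.39 (adjusted p = 0.358), in a step where 17.7% of genes were higher and 20.3% lower. Spermatogonia exceeded the mean of the other germ cell classes by 3.66 ± 0.27 (adjusted p = 4.58e-22), with 31.5% of genes higher and 35.3% lower.

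The scaling of the libraries moved all genes together in some of these steps. In round spermatids over pachytene or diplotene spermatocytes, the median log2 fold change of all genes was -0.07 with edgeR's TMM factors and 0.43 with DESeq2's size factors. Relative to those medians, Kit stood at 3.20 and 3.19. In leptotene or zygotene spermatocytes over spermatogonia, Kit stood at -3.10 and -3.13 relative to the medians of the 2 scalings.

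The share of cells with a Kit UMI gave the same order of Leydig cells, spermatogonia, round spermatids and pachytene or diplotene spermatocytes. It was 42.0% (38.2 to 45.9) and 39.4% (36.9 to 42.0) of Leydig cells, 15.3% (11.8 to 19.4) and 16.2% (13.3 to 19.4) of spermatogonia, 4.39% (3.46 to 5.49) and 5.09% (4.26 to 6.02) of round spermatids, and 0.453% (0.226 to 0.809) and 0.735% (0.493 to 1.05) of pachytene or diplotene spermatocytes in replicates 1 and 2. The last class was also among the deepest, with a median of 7295 and 6092 UMIs per cell, against 2026 and 2125 in spermatogonia. Thinned to 1000 UMIs, the shares were 20.8% and 12.3% of Leydig cells, 6.99% and 7.99% of spermatogonia, 1.26% and 0.556% of round spermatids, and 0.0412% and 0.101% of pachytene or diplotene spermatocytes. Leptotene or zygotene spermatocytes had 2.13% and 1.47% before thinning, below round spermatids, although their CPM was higher in both samples. Thinned, they had 1.52% and 0.491%. Free RNA had 6.49 CPM of Kit (from 7 UMIs), above the level inside pachytene or diplotene spermatocytes of the same suspension.

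The Kit of leptotene or zygotene spermatocytes lay mostly in 1 cluster of each sample. These clusters, of 264 cells in replicate 1 and 454 cells in replicate 2, held Stra8, a gene of meiotic entry, at 540 and 433 CPM. Their Kit level was 37.8 CPM (22.8 to 59.1) in replicate 1 and 20.6 CPM (12.2 to 32.5) in replicate 2. The remaining clusters of the class, 1 in replicate 1 and 2 in replicate 2, held Stra8 at 3.84, 4.05 and 8.86 CPM, and Kit at 0.768, 2.03 and 2.46 CPM. Without the Stra8-high clusters the class had 0.768 CPM of Kit (1 UMI in 392 cells) in replicate 1 and 2.28 CPM (8 UMIs in 1175 cells) in replicate 2. The log2 fold change over spermatogonia was then -4.99 ± 0.53 (SE, edgeR adjusted p = 6.68e-14). Pachytene or diplotene over the remaining leptotene or zygotene spermatocytes gave -0.85 ± 0.67 (edgeR adjusted p = 0.325), so the call of this second step rests on the Stra8-high clusters. That split was chosen after the values were seen.

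Round spermatid clusters also differed in Kit. The lowest was a cluster of 670 cells in replicate 2, at 0.776 CPM (0.252 to 1.81), which had the highest level of the spermatocyte gene Ccna1 (279 CPM) of any round spermatid cluster. That level was also above all pachytene or diplotene clusters, which reached 260 and 263 CPM. The round spermatid marker Acrv1 was at 315 CPM, the lowest of these clusters, against at most 64.0 CPM in pachytene or diplotene clusters. The name of this cluster is thus less certain, and it stayed in the class for every contrast. The 3 other deep clusters of replicate 2 had 5.41 to 6.51 CPM, and those of replicate 1 had 4.94, 6.44 and 10.4 CPM. A cluster of low depth in each sample was highest, with 21.3 CPM (9.75 to 40.5) in 260 cells with a median of 1385 UMIs and 18.4 CPM (9.53 to 32.2) in 332 cells with a median of 1535 UMIs. Without these shallow clusters the class had 7.64 and 4.60 CPM, and round spermatids still exceeded pachytene or diplotene spermatocytes by 3.09 ± 0.42 (SE, edgeR adjusted p = 2.51e-09). The 13 pachytene or diplotene clusters ranged from 0 to 3.40 CPM.

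**Figure D2:**
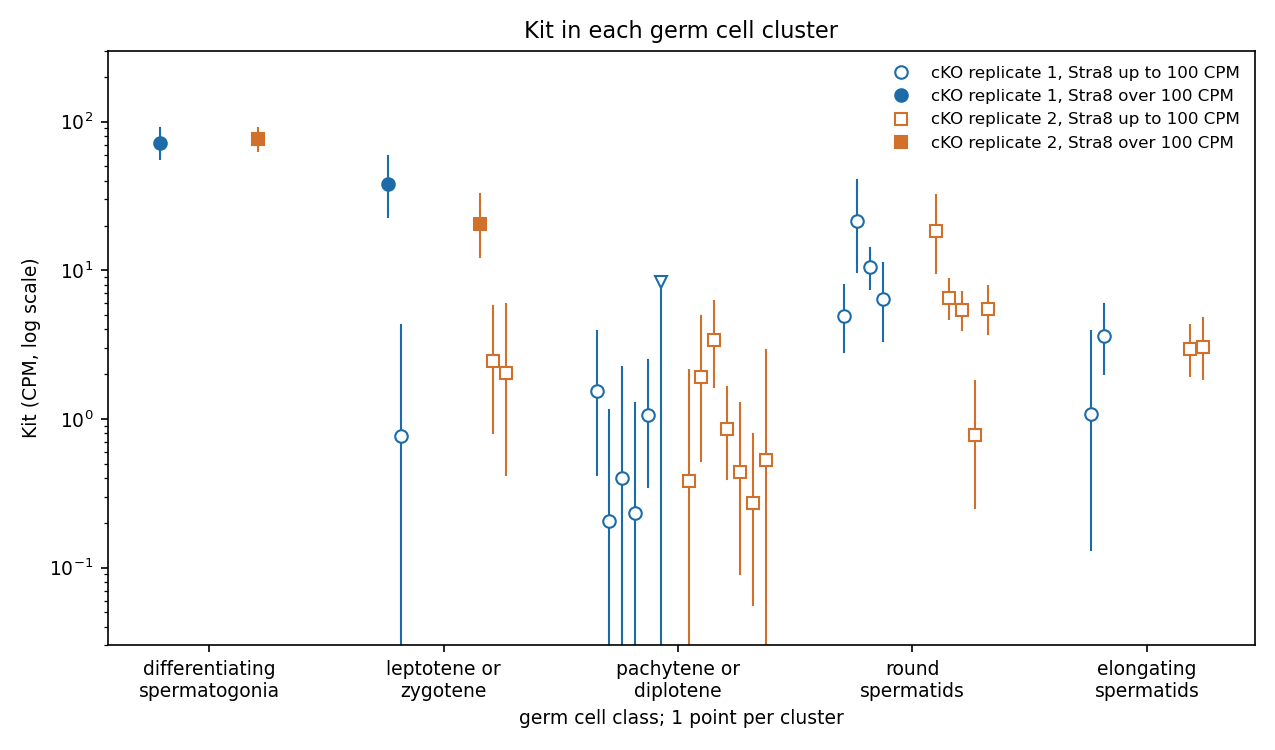
Kit in CPM on a log axis for each germ cell cluster of cKO replicates 1 (circles) and 2 (squares), with 95% Poisson intervals; lines that run off the bottom have a lower bound below the axis, and the triangle is a count of 0. Filled symbols mark clusters with Stra8 over 100 CPM: the spermatogonia and 1 spermatocyte cluster per sample, at 37.8 and 20.6 CPM, stand above all other spermatocyte clusters.

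A list of 58 genes that act behind KIT was read in the same fit, in 4 roles: adaptors and the RAS to ERK kinases, PI3 kinase to mTOR and FOXO, SRC kinases with PLC gamma and STATs, and phosphatases, ligases and inhibitors. Spermatogonia, the germ cells with most Kit, had 32 of the 58 genes higher and 4 lower than the mean of the other germ cell classes (edgeR, adjusted p under 0.05), beside 31.5% and 35.3% of all genes. The median log2 fold change was 0.74 over the list and -0.31 over all genes. By role the counts higher and lower were 8 and 2 of 16 adaptors and RAS to ERK genes, 7 and 1 of 16 PI3 kinase genes, 9 and 0 of 13 SRC, PLC gamma and STAT genes, and 8 and 1 of 13 phosphatases, ligases and inhibitors. Jak2, a kinase that binds cytokine receptors, had 29.6 and 25.2 CPM in spermatogonia, against 0.139 to 17.2 CPM in the other germ cell classes, and rose by 3.96 ± 0.39 (SE). Dok1, an adaptor that restrains RAS, and Spry4, a feedback inhibitor of receptor kinases, were also called higher. They had 5 and 11 UMIs (Dok1) and 1 and 2 UMIs (Spry4) in spermatogonia, too few for a fold change. Sh2b3 (-1.15 ± 0.33), an adaptor that restrains cytokine signalling, Gab2 (-1.13 ± 0.30), a docking protein for PI3 kinase, and Mapk3, the ERK1 kinase gene, were lower. Mapk3 had 20.1 and 23.4 CPM in spermatogonia, against 9.98 to 57.4 CPM in the other germ cell classes.

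In leptotene or zygotene spermatocytes over spermatogonia, 11 of the 58 genes were higher and 13 lower, beside 15.7% and 13.8% of all genes, with a list median of 0.02 beside 0.15 over all genes. With DESeq2's size factors the counts were 4 and 16, beside 2319 higher and 3150 lower of 19061 genes. Gab2 had 278 and 229 CPM in these spermatocytes, against 46.6 and 45.0 CPM in spermatogonia, and rose by 2.72 ± 0.36. Cbl, a ubiquitin ligase that removes activated receptors (1.48 ± 0.32), and Pik3ca, a catalytic subunit of PI3 kinase (1.42 ± 0.36), were higher too. Socs1, an inhibitor of JAK kinases, had 1.11 and 1.82 CPM, against 34.9 and 43.8 CPM in spermatogonia, and fell by 4.36 on the log2 scale. Dok1 and Grb7, an adaptor of receptor kinases, were called lower, with no UMI of either gene in leptotene or zygotene spermatocytes and 5 and 11 UMIs (Dok1) and 5 and 4 UMIs (Grb7) in spermatogonia.

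In pachytene or diplotene over leptotene or zygotene spermatocytes, 8 were higher and 20 lower, beside 25.3% and 21.5% of all genes, with a list median of -0.50 beside 0.03. The largest decreases were in Jak2 (-3.77 ± 0.46), the SRC family kinase gene Fyn (-3.53 ± 0.38) and Foxo3 (-2.87 ± 0.42), a transcription factor that AKT keeps out of the nucleus. Fyn had 1.49 and 1.66 CPM in pachytene or diplotene spermatocytes, against 28.8 and 24.4 CPM in leptotene or zygotene spermatocytes. The increases were led by Grb7, at 17 and 14 UMIs against 0 and 0, by Pik3cd (2.96 ± 0.48), another catalytic subunit of PI3 kinase, and by Ptpn6 (2.11 ± 0.76), a phosphatase that acts on KIT.

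In round spermatids, where Kit was higher than in pachytene or diplotene spermatocytes, 5 of the 58 genes were higher and 29 lower, beside 32.6% and 32.1% of all genes, with a list median of -1.12 beside -0.07 over all genes. With DESeq2's size factors the counts were 8 and 24, beside 7629 higher and 4330 lower of 19061 genes. Gab2 had 24.2 and 6.76 CPM in round spermatids, against 150 and 136 CPM in pachytene or diplotene spermatocytes, and fell by 3.33 on the log2 scale. Pik3cb (-3.25 ± 0.40), a catalytic subunit of PI3 kinase, and Gab1 (-3.05 ± 0.37), a docking protein, were lower as well. Grb7 had 8.99 and 10.6 CPM in round spermatids, against 0.874 and 0.369 CPM in pachytene or diplotene spermatocytes, and rose by 4.18 ± 0.51. Pik3r1 (2.05 ± 0.48), a regulatory subunit of PI3 kinase, and Mapk3 (1.13 ± 0.31) rose too. Elongating over round spermatids had 16 higher and 3 lower, beside 17.7% and 20.3% of all genes, with a list median of 0.13 beside -0.08. The counts were 24 and 2 with DESeq2's size factors, 6 and 1 with doublets kept and 7 and 1 at resolution 0.5. Over all genes the same settings gave 4965 and 2418, 1438 and 1061, and 1530 and 2854. The increases were led by Sh2b2 (3.93 ± 0.45), an adaptor of receptor kinases, Foxo3 (3.62 ± 0.39) and Stat3 (2.75 ± 0.40), a STAT factor. The decreases were in Grb7 (-4.26 ± 0.61), Pik3r1 (-2.18 ± 0.64) and Fer (-0.96 ± 0.33), a non-receptor kinase.

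Between the somatic classes, 19 of the 58 genes were higher and 14 lower in Leydig cells, which have most Kit, than in Sertoli cells. Over all genes 22.1% were higher and 31.6% lower, and the medians were 0.47 for the list and -0.39 for all genes. With doublets kept the counts were 12 and 2, beside 2784 higher and 1567 lower of 19390 genes. Stat5b, a STAT factor, had 32.4 and 21.6 CPM in Leydig cells, against 0 and 0.381 CPM in Sertoli cells, and gave 7.26 ± 0.79. Dok1 had 19 and 57 UMIs in Leydig cells, against 0 and 3 UMIs in Sertoli cells, and gave 4.37 ± 0.82. The third named increase, the kinase gene Fes, rested on 2 and 6 UMIs in Leydig cells, against 0 and 0 in Sertoli cells. Among the decreases, Sh2b2 (-1.96 ± 0.75) and the phospholipase gene Plcg2 (-1.86 ± 0.72) had under 6 CPM in either class, and Grb7 had 0 and 0 UMIs in Leydig cells, against 2 and 2 in Sertoli cells.

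The genes whose levels followed Kit most closely over the 16 class and sample sums were Cobll1 (Pearson r 0.97), Frmd5 (0.92), Bnc2 (0.90), Fermt2 (0.90) and Igfbp2 (0.89), of 7955 genes with a mean of at least 20 CPM. The CPM of these like genes, and the cut at 20 CPM, are scaled by edgeR's TMM factors (0.501 to 1.63), unlike the other CPM given here. Cobll1 had 95.4 and 73.3 CPM in Leydig cells, 43.0 and 24.1 CPM in spermatogonia, 1.06 and 0.685 CPM in pachytene or diplotene spermatocytes and 16.3 and 7.87 CPM in round spermatids. It thus had the same order of these 4 classes as Kit. Those most like Kitl included Timp3 (0.96), Gm49708 (0.96), Mmd2 (0.96) and Dlgap1 (0.95). The 16 points share 2 libraries and the clustering, and the coefficients are a description only.

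At the chromatin level, every cKIT+ list held more peaks around Kitl than any 4C-sorted list, while the numbers around Kit overlapped between the sorts. Within 100 kb of Kitl the 4C-sorted lists held 4 and 1 peaks in cKO and 0 and 1 in wild type, and the cKIT+ lists held 22 and 23 in cKO and 5 and 22 in wild type. Within 100 kb of Kit the 4C-sorted lists held 7 and 10 peaks in cKO and 6 and 8 in wild type, and the cKIT+ lists held 29 and 20 in cKO and 6 and 26 in wild type. The low value of each cKIT+ set is wild type replicate 1, whose whole list has 44697 peaks, beside 112518 to 127222 in the other 3 cKIT+ lists and 54059 to 59417 in the 4C-sorted lists. Its peaks also carry another name prefix than those of the other 7 lists. Counts were therefore compared as shares of each list. Depth per library is unknown, and a region with no peak is not shown to be closed.

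As a share of its list, the Kitl window held 0.00270% ± 0.00323 of 4C-sorted peaks and 0.0167% ± 0.00381 of cKIT+ peaks (SD, n = 4 lists each). The log2 ratio was -2.63, with a two-sided exact permutation p of 0.0556, the smallest that 36 arrangements within genotypes allow. For Kit the shares were 0.0136% ± 0.00272 in 4C-sorted lists and 0.0189% ± 0.00480 in cKIT+ lists, with a log2 ratio of -0.48 (exact permutation p = 0.222). Every 4C-sorted share of Kitl lay below every cKIT+ share, while the Kit shares of both sorts overlapped.

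Within each stage the shares of the genotypes overlapped, except those of Kitl in 4C-sorted cells, where both cKO shares lay above both wild type shares. The Kit share in cKIT+ cells was 0.0228% and 0.0164% in cKO and 0.0134% and 0.0231% in wild type, a log2 ratio of 0.10 (two-sided exact permutation p = 1). The ratio turned to -0.15 without cKO replicate 1 and to -0.24 without wild type replicate 1. In 4C-sorted cells the Kit share was 0.0129% and 0.0173% in cKO and 0.0108% and 0.0135% in wild type, a log2 ratio of 0.32 (exact permutation p = 0.667). It turned to -0.19 when peaks had to reach a -log10 q of 5. The Kitl share in cKIT+ cells was 0.0173% and 0.0189% in cKO and 0.0112% and 0.0196% in wild type, a log2 ratio of 0.23 (exact permutation p = 1), and -0.11 without wild type replicate 1. In 4C-sorted cells the Kitl share was 0.00740% and 0.00173% in cKO and 0% and 0.00168% in wild type, which rests on 6 peaks in all (log2 ratio 2.44, exact permutation p = 0.333). With 2 lists against 2 the smallest possible p is 0.333. Over both stages the log2 ratios of cKO over wild type were 0.19 for Kit (exact permutation p = 0.556) and 0.48 for Kitl (exact permutation p = 0.333). The genotype log2 ratio of 4C-sorted cells exceeded that of cKIT+ cells by 0.22 for Kit and 2.20 for Kitl. The exact permutation test of this stage difference used the shares themselves (p = 0.833 for Kit and p = 0.778 for Kitl). Those p-values thus do not test the differences of log2 ratios.

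Of the 37 regions near Kit, 12 had a peak in some 4C-sorted list, 34 in some cKIT+ list and 9 in both stages, and 11 were found in 1 list only. They lay before the gene (16), at its start (1), within it (16) and beyond its end (4). The region at the Kit start (chr5:75574607-75575998) contains the whole promoter window printed above and had a peak in all 8 lists. Its fold enrichment, the authors' own value per peak, was 4.55 and 5.57 in 4C-sorted cKO, 4.18 and 4.06 in 4C-sorted wild type, 5.71 and 5.80 in cKIT+ cKO, and 5.49 and 6.71 in cKIT+ wild type cells. It stood at the 58.1 to 86.2 percentile of fold within each list. A peak at the promoter in all 8 lists was common, since 48.1% of 17462 protein-coding promoters had one. The Kit start was thus called open in every 4C-sorted list. Kit RNA of the cKO suspensions ranged widely over the germ line. It went from 0.617 and 0.818 CPM (pachytene or diplotene spermatocytes) to 72.0 and 76.3 CPM (differentiating spermatogonia). Leptotene or zygotene spermatocytes lay between, with 11.1 and 5.93 CPM. The share of each class among the 4C-sorted cells was not measured, so their peak at the start cannot be set against the RNA of a single class.

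Besides the start, 2 more regions near Kit were open in all 8 lists, at chr5:75518068-75518860 and chr5:75537799-75539526, which lie -56.5 and -36.3 kb from the start. Regions in all 8 lists made up 3 of 37 near Kit and 0 of 30 near Kitl, beside 8.32% of all merged regions. The highest folds near Kit were in cKIT+ cells, at chr5:75559216-75559562, -15.6 kb from the start. They were 10.9 and 14.6 in cKO and 10.6 in wild type replicate 2, with no peak in wild type replicate 1 or in any 4C-sorted list. A region 53.8 kb into the gene (chr5:75628532-75629052) was similar, with 9.18 and 8.36 in cKO and 8.81 in wild type replicate 2. The pattern of both cKO and the second wild type cKIT+ list, without the first and without any 4C-sorted list, held 10 of 37 regions near Kit and 12 of 30 near Kitl, and 20.3% of all regions. A region in all 4 cKIT+ lists and no 4C-sorted list was seen once near Kit, at chr5:75601590-75601931 (5.53 and 5.40 in cKO, 4.31 and 3.29 in wild type), 1 of 37, and once in 30 near Kitl, beside 2.72% of all regions. No region near either gene was in all 4C-sorted and no cKIT+ list, a pattern of 1.63% of all regions. The nearest to it was chr5:75568588-75570020, -5.68 kb from the Kit start, with folds of 5.03 and 4.78 in 4C-sorted cKO, 4.58 and 4.94 in 4C-sorted wild type, and 3.56 in cKIT+ cKO replicate 1 alone.

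Regions that followed genotype in both lists of a stage were few. In 4C-sorted cells, 1 of 12 regions near Kit had a peak in both cKO and neither wild type list (4.2% of all regions did so), and 1 of 12 had the opposite pattern (4.15% of all regions). The cKO one (chr5:75657339-75657675) lies just beyond the annotated end of Kit at 75656722, with folds of 3.09 and 4.45 and no peak in any cKIT+ list. The wild type one (chr5:75589624-75589819) lies within the gene, 14.7 kb from the start, with folds of 5.53 and 4.27, and cKIT+ cKO replicate 1 had a peak there at 3.17. In cKIT+ cells, 1 of 34 regions near Kit had a peak in each cKO list and in no wild type list, beside 8.98% of all regions, at chr5:75642086-75642279 with folds of 2.88 and 3.66. None was in both wild type and neither cKO list, beside 0.965% of all regions. The cKO count was 14 without wild type replicate 2, which leaves the short list as the only wild type one. In that setting it was 14 of 29 regions near Kit (48.3%), beside 46.8% of all regions. With all lists the cKIT+ count was below the share of all regions, and in 4C-sorted cells each pattern rests on 1 region.

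**Figure D3:**
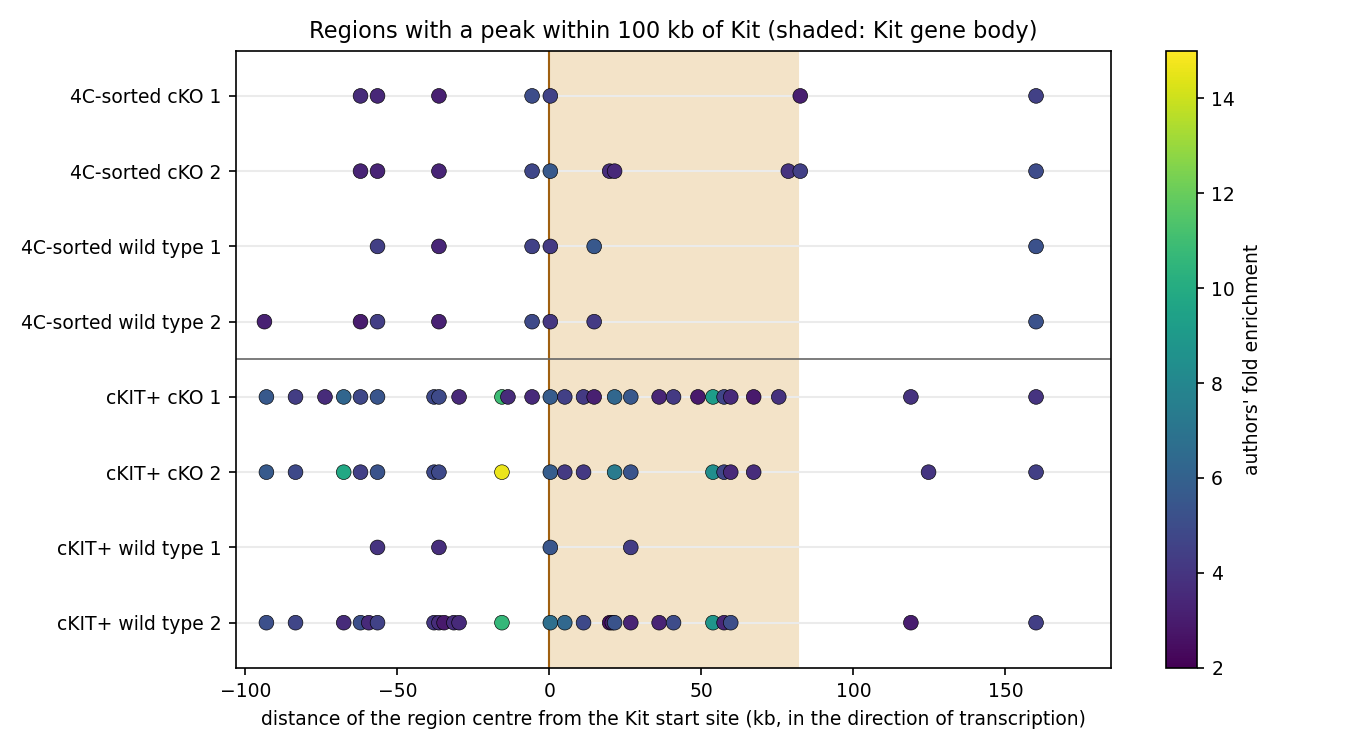
Each point is a merged region with a peak within 100 kb of Kit, placed by the distance of its centre from the Kit start in kb (negative is before the gene), with 1 row per ATAC-seq list and the colour giving the authors' highest fold enrichment of the peaks in it. The start at 0 has a point in all 8 rows, the brightest points lie at -15.6 kb in 3 cKIT+ rows, and the row of cKIT+ wild type replicate 1 has few points.

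Near Kitl, 4 of 30 regions had a peak in some 4C-sorted list, 30 in some cKIT+ list and 4 in both stages, and 8 were found in 1 list only. They lay before the gene (6), at its start (1), within it (11) and beyond its end (12). The region at the Kitl start (chr10:100015445-100016674), which contains the promoter window printed above with its TATAAA match, had folds of 5.60 and 5.80 in cKIT+ cKO and 3.48 and 6.21 in cKIT+ wild type cells. In 4C-sorted cells the region held a single peak, in cKO replicate 1 (chr10:100016160-100016498, fold 3.08), which lies past the start and outside the promoter window, so no 4C-sorted list had a peak on the start itself. A promoter peak in all 4 cKIT+ lists and at most 1 4C-sorted list was seen at 1.29% of the 17462 protein-coding promoters, 225 in number. The Kitl start was thus called open in every cKIT+ list, including the short one, while Kitl RNA in spermatogonia of the cKO suspensions was at 2.12 and 5.40 CPM, within the free RNA interval. The share of other cells in the cKIT+ sort was not measured in these files.

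The one region in all 4 cKIT+ and no 4C-sorted lists near Kitl was chr10:100026447-100026848, 10.8 kb into the gene, with folds of 6.38 and 5.73 in cKO and 3.73 and 3.38 in wild type. In cKIT+ cells, 2 of 30 regions had a peak in each cKO list and in no wild type list, at chr10:100064690-100064822 within Kitl (4.43 and 3.99) and chr10:100143034-100143120 beyond it (3.06 and 2.36), beside 8.98% of all regions. Without wild type replicate 2, which again leaves the short list, it was 16 of 27 (59.3%), beside 46.8% of all regions. None was in both wild type and neither cKO cKIT+ list. In 4C-sorted cells no region near Kitl was in both lists of one genotype and neither of the other. The most shared region, chr10:99928892-99929434 at -86.7 kb, was in 6 lists, with folds of 4.98 and 5.35 in 4C-sorted cKO, 4.26 in 4C-sorted wild type replicate 2, 4.49 and 3.64 in cKIT+ cKO, and 3.18 in cKIT+ wild type replicate 2. No region overlapped the annotated end of either gene.

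Beyond Kitl lies Gm35533, an annotated lncRNA at chr10:100129868-100144136, the only other gene of either window that the single-cell matrices list. The 2 strongest regions of the Kitl window lie in it or across its edge. These are chr10:100139488-100139776, with folds of 8.26 and 8.13 in cKIT+ cKO and 8.21 in cKIT+ wild type replicate 2, and chr10:100143870-100144771, with 5.40 and 8.16 in cKIT+ cKO and 5.88 in cKIT+ wild type replicate 2. No 4C-sorted list had a peak at either. Gm35533 RNA was counted at 15.9 and 10.1 CPM in Leydig cells and 51.4 and 121 CPM in Sertoli cells of replicates 1 and 2, and at 1.06 and 1.20 CPM in differentiating spermatogonia. The lncRNA was thus highest in Sertoli cells among these classes in both samples, as values with no test.

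**Figure D4:**
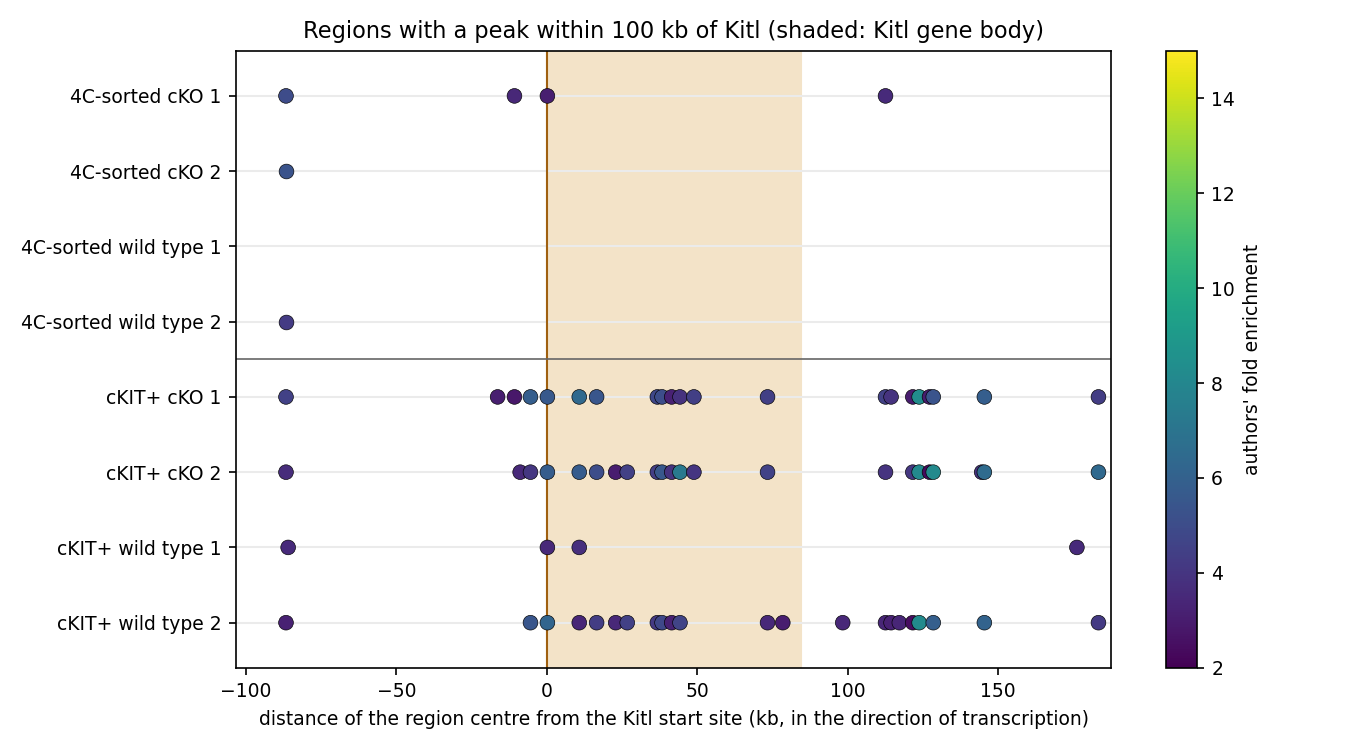
Each point is a merged region with a peak within 100 kb of Kitl, placed by the distance of its centre from the Kitl start in kb, with 1 row per ATAC-seq list and the colour giving the authors' highest fold enrichment of the peaks in it. The 4C-sorted rows hold 4, 1, 0 and 1 points, the start at 0 is marked in all 4 cKIT+ rows, and the brightest points lie near 124 kb.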

How the data were processed

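Cell Ranger produced the deposited UMI counts, in version 7.1.0 for replicate 1 and 9.0.1 for replicate 2, per the file headers; they are raw counts. Chemistry was 3′ v3.1, per the labels' protocols. The build was mm10, and Seurat 4.1.0 was named too, per the submitters' processing notes. The peak lists were deposited by the authors in broadPeak layout, 1 list per library, after cutadapt, Bowtie2 and MACS2, per the submitters' processing notes. Each deposited peak has a score, a fold enrichment, a -log10 p and a -log10 q, and the lowest -log10 q of each list was 1.00 to 1.01. The deposited score and p were not used.

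Barcodes with at least 1000 UMIs, 500 genes and at most 10% mitochondrial counts were kept (8098 and 14262 barcodes), and Scrublet marked 685 and 1329 as doublets, which were removed. The totals of the matrices were 63605819 and 115830234 UMIs. Cells were clustered per sample in scanpy 1.11.5 (2000 variable genes, 30 components, Leiden resolution 1). A cluster was named from its own marker list, and unnamed clusters entered no contrast. UMIs were added up within each class of a sample, where the class reached 50 cells in each sample, and tested with edgeR 4.0.16 (quasi-likelihood test, TMM, filterByExpr, sample as a block, Benjamini-Hochberg over all genes, threshold 0.05). The sample is a block because all classes of 1 sample share a suspension. The test was also run on simulated counts, with known changes in Leydig cells only, no other class difference and no sample effect. That setting is simpler than these data, so it does not show how the test performs here. Peak shares were compared by exact permutation over libraries, two-sided. Alternatives were DESeq2 1.42.0 and its size factors, no filter, no block, other cell filters and resolutions, stricter or equally long peak lists, 50 kb windows and each replicate left out.

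Named pathway genes are the 3 with the largest called change in each direction per contrast. Named regions overlap a gene start, follow genotype or stage in all lists, or are in all 8 lists, with others chosen after their values were seen. The genes, lists and tests were chosen with earlier results of these data known. Distal sequences were not used here, and 1 gene among those most like Kitl is not reported here.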

Additional observations from a re-analysis of the deposited data

Results flagged for a closer look

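Clusters of replicate 2 that met no class by the naming rule held Kit and Kitl above the limit that a count of 0 allows, outside the classes compared. A cluster of 120 cells, led by Cyp26b1, Dcn and Mgp with markers of peritubular and stromal cells, had 11.9 CPM of Kit (3.24 to 30.5, from 4 UMIs) and 107 CPM of Kitl (75.0 to 148, from 36 UMIs). That Kit level lay inside the free RNA interval of replicate 1, 2.61 to 13.4 CPM. Free RNA of replicate 2 could not be read. A cluster of 92 cells, led by Cd74 and other macrophage genes with Leydig cell markers summing to 17579 CPM, had 91.4 CPM of Kit (69.2 to 118, from 57 UMIs) and 48.1 CPM of Kitl (32.5 to 68.7, from 30 UMIs).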

How the results depend on the processing

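Of 292 alternative values of the class contrasts, 244 held. They kept direction and call or, with 1 replicate left out, lay within 1 SE of the main value. Of the levels, 40 of 58 stayed within 1 SD. Under other scaling, filter, block and tool, 48 of 48 pathway counts stayed within 1.5 times, as totals of both directions. Counts by direction were less stable. In leptotene or zygotene spermatocytes over spermatogonia, 11 higher and 13 lower became 4 and 16 with DESeq2's size factors. They became 5 and 16 in DESeq2's test and 5 and 11 without the block. Direction held in 108 of 118 peak shares, for which so few lists allowed no p under 0.05. Of the region counts, 43 of 64 stayed within 1.5 times. Causes were not tested. Under cell filters and resolutions, counts of called pathway genes moved further with doublets kept to 7, against 19 (elongating over round spermatids), 14, against 33 (Leydig over Sertoli), 8, against 24 (Leydig over other somatic), 13, against 24 (Sertoli over other somatic) and 17, against 30 (spermatogonia over Leydig). With 2000 UMIs they moved to 20, against 41 (germ over somatic), and at resolution 0.5 to 8, against 19 (elongating over round spermatids). Calls over all genes moved too. In the same order, with doublets kept, they were 2499, against 7241, 4351, against 10250, 3410, against 6446, 4521, against 8890, and 7192, against 7926. With 2000 UMIs they were 4720, against 10211, and at resolution 0.5 they were 4384, against 7241. The exceptions with a log2 fold change for Kitl were as follows. Round spermatids over pachytene or diplotene spermatocytes gave 0.086 with DESeq2's size factors, 0.092 with DESeq2's test and -1.13, now called, with a minimum of 2000 UMIs. Leptotene or zygotene spermatocytes over spermatogonia gave 0.14 with no filter, 0.018 with doublets kept, 0.038 with 2000 UMIs and 0.52 at resolution 2. Pachytene or diplotene over leptotene or zygotene spermatocytes gave 1.61 with 2000 UMIs and 1.19 at resolution 0.5, both now called, and elongating over round spermatids gave 0.48 and 1.00. Sertoli over other somatic classes gave 0.94 with no filter and 2.45 at resolution 0.5, both now called. Leydig over Sertoli cells lost its call at 0.82 with no filter, 0.90 in DESeq2, 0.60 with doublets kept, and 0.71 and 0.80 at resolutions 0.5 and 2. For Kit, round spermatids over Sertoli cells lost its call at 0.86 with doublets kept and 1.07 with 2000 UMIs. Germ over somatic classes gave 0.46 with 2000 UMIs and -1.39 at resolution 0.5, Sertoli over other somatic classes -2.86 at resolution 0.5, and pachytene or diplotene over leptotene or zygotene spermatocytes -0.85 without the Stra8-high clusters, a setting chosen after seeing the data.

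The mean CPM moved by over 1 SD as follows. With doublets kept, Kit was 66.9 in spermatogonia and 4.11 in Sertoli cells, and Kitl was 4.47 in pachytene or diplotene spermatocytes. With 2000 UMIs, Kit was 2.75 in leptotene or zygotene spermatocytes, 2.66 in elongating spermatids and 5.30 in Sertoli cells, and Kitl was 4.90 in pachytene or diplotene spermatocytes, 1.86 in round and 2.19 in elongating spermatids. At resolution 0.5, Kit was 13.4 in leptotene or zygotene spermatocytes, 1.78 in elongating spermatids and 3.63 in Sertoli cells, and Kitl was 4.40 in pachytene or diplotene spermatocytes, 2.26 in round and 3.34 in elongating spermatids. At resolution 2, Kit was 2.76 in elongating spermatids, and Kitl was 4.57 in pachytene or diplotene spermatocytes and 2.32 in round spermatids. The macrophage means moved by less than their large SD (49.5 for Kit and 32.0 for Kitl), although Kit of replicate 1 ran from 6.33 to 138 CPM. Resolution 0.5 gave no class of spermatogonia in both samples, and 2000 UMIs left no Leydig or macrophage class in replicate 1, so those values could not be had.

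The replicate block compares classes within a suspension. Without the replicate block, Kitl in Leydig over Sertoli cells lost its call (0.81), and no other of the 36 results did. With a replicate block on the peak shares, the ratios stayed as they were (0.19 for Kit in cKO over wild type in both stages, exact permutation p = 0.625), since the block changes only the arrangements. Nothing in the labels says that equal numbers share a litter or day.

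For the peaks near Kit, cKO over wild type in 4C-sorted cells was -0.19 with a -log10 q minimum of 5 and -0.21 by bases covered, and its difference from cKIT+ cells was -0.70, -0.33 by number of peaks and -0.74 by bases. Ratios against wild type 4C-sorted lists with no Kitl peak have no value. Regions near Kit in each cKO and no wild type cKIT+ list numbered 5 with the q minimum, 2 in lists of equal length and 0 when peaks had to overlap by 50%, and near Kitl 0 in lists of equal length. The 4C-sorted cKO pattern near Kit was 0 with the q minimum and 0 in lists of equal length, and its wild type pattern was 0 with the q minimum. Shares over all regions are not given for these settings, so the counts cannot be set against them. With the q minimum, the short cKIT+ list of wild type replicate 1 kept 1 peak near Kit.

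Leaving out 1 replicate gave log2 ranges for Kit of -2.36 to 1.67 (germ over somatic), -3.51 to -2.30, -3.67 to -2.18, 2.85 to 3.67 and -0.92 to -0.16 (successive germ steps), -2.67 to -2.08 (spermatogonia over Leydig cells), 4.59 to 10.14 (Leydig over other somatic classes) and -5.12 to 0.68 (Sertoli over other somatic classes). For Kitl they were -4.72 to -0.67, 0.66 to 1.81 (pachytene or diplotene over leptotene or zygotene), -1.14 to 0.021 (spermatogonia over other germ classes), -7.08 to -5.11, 2.17 to 6.68, -0.33 to 6.42, -4.85 to -3.83 (round spermatids over Sertoli cells) and 0.17 to 1.67 (Leydig over Sertoli cells). With 1 sample left there was no test. The cKO over wild type ratio of peak shares in cKIT+ cells ran from -0.24 to 0.55 for Kit and -0.11 to 0.69 for Kitl, and the Kit difference between stages from -0.23 to 0.56. Region counts ran from 1 to 14 and 2 to 16 (cKO pattern in cKIT+ cells, Kit and Kitl), 0 to 5 and 0 to 3 (wild type pattern), 1 to 4 and 0 to 3 (cKO pattern in 4C-sorted cells) and 1 to 2 (wild type pattern, Kit). Of these counts with a list left out, only the 14 and the 16 have a share over all regions, given above.

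Depth limits the macrophage and Sertoli values of Kit, which rest on at most 17 UMIs per sample, and low depth of a library cannot be told apart from closed chromatin in the peak lists.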

Other observations

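Kitl varied among pachytene or diplotene clusters more than the class means show. Levels ran from 1.20 to 9.38 CPM over the 6 clusters of replicate 1 and from 1.17 to 8.04 CPM over the 7 clusters of replicate 2. The highest cluster of each sample, at 9.38 CPM (6.82 to 12.6, from 44 UMIs) and 8.04 CPM (4.98 to 12.3, from 21 UMIs), held the late spermatocyte gene Ccna1 at 132 and 238 CPM. The lowest of each held Ccna1 at 8.03 and 23.9 CPM. The clusters with most Ccna1, at 260 and 263 CPM, had intermediate Kitl levels of 5.56 and 4.54 CPM, and clusters with Ccna1 at 29.3 and 28.3 CPM had 6.76 and 5.28 CPM of Kitl. These are values without a test.

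The receptor tyrosine kinase genes that flank Kit on the chromosome had other patterns. Pdgfra had 59.9 and 18.0 CPM in Leydig cells, 8.97 and 6.48 CPM in Sertoli cells, and 2.12 and 0.601 CPM in differentiating spermatogonia, where Kit had 72.0 and 76.3 CPM. Kdr had at most 1.80 CPM in spermatogonia.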
